A study of Mus musculus with 98 samples.

Results

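The nuclear genes of oxidative phosphorylation were examined across muscle, liver and 2 hypothalamic nuclei of mice with humanized livers. Members were the mouse rows whose symbol begins as a subunit of complex I (Nduf followed by a, b, c, s or v and a number), complex II (Sdha to Sdhd), complex III (Uqcr), complex IV (Cox4 to Cox8) or ATP synthase (Atp5). This name rule found 84 genes in both deposited count tables, of 19347 mouse rows that the tables share. A gene counted as a member in a tissue where its mean level was at least 1 CPM (counts per M, or mega, of the library's counts), before scaling between libraries. The levels printed below are CPM after scaling. That left 81 members in muscle, 78 in liver, 79 in the arcuate nucleus (ARC) and 79 in the suprachiasmatic nucleus (SCN), and all of them entered the tests.

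All mice were FRGN mice, a line that lacks Fah, Rag2 and Il2rg on a background crossed to the non-obese diabetic strain. They were males of 10 weeks, transplanted through the spleen with human hepatocytes (Hu) or murine hepatocytes (Mu), and Hu mice were used where human cells made up more than 70% of the liver. Both arms shared the deletions, cycles of nitisinone (NTBC, the drug that protects hepatocytes lacking Fah), sulfamethoxazole with trimethoprim, dextrose in the water and a high energy diet. Muscle and liver each had 15 Hu and 12 Mu libraries, and ARC and SCN each had 10 Hu and 12 Mu libraries. Sampling covered 6 zeitgeber times (ZT, counted in hours from lights on), namely 2, 6, 10, 14, 18 and 22, and each arm has 1 to 3 libraries at each of them. The labels do not say that libraries of a group come from separate mice, so p-values measure the spread between these libraries. A Hu liver is a mixture: its mouse rows hold RNA of the host's own liver cells, and the human hepatocytes are counted on separate rows that carry no gene names here.

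Oxidative phosphorylation is the last step of aerobic energy production. Complex I takes electrons from NADH and complex II takes them from succinate, complex III passes them to cytochrome c, complex IV hands them to oxygen, and ATP synthase uses the proton gradient that complexes I, III and IV build up. Most subunits are encoded in the nucleus and a small core by mitochondrial DNA, so both genomes must supply matching parts. Skeletal muscle carries contractile isoforms of complex IV (Cox6a2, Cox7a1 and Cox8b) in place of the widely expressed isoforms Cox6a1, Cox7a2 and Cox8a. Slow and fast oxidative fibres hold more mitochondria than fast glycolytic fibres, and hepatocytes more than most other cells of the liver.

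Promoters are shown for 4 members, because letters recognised by NRF1 and by ETS factors such as GABP, regulators long known for this gene group, lie in many of them. Sequences come from the RefSeq table for GRCm38.p6, which held 66 of the 84 genes. Each run is the 250 bases before the start site of that source, on the strand of the gene. By the gene positions of GENCODE M21 all 4 genes start further upstream, so the end of each run lies inside the gene. The marked letters of Sdhb, Ndufa8 and Atp5h and the ETS core of Cox6a1 lie in that part. Capitals mark the NRF1 core GCGCATG, or its reverse complement CATGCGC, and the ETS core CCGGAAG, or its reverse complement CTTCCGG. Sdhb lies on the plus strand at chr4:140961021-140961270, Ndufa8 on the minus strand at chr2:36049339-36049588, Atp5h on the minus strand at chr11:115419920-115420169 and Cox6a1 on the minus strand at chr5:115348959-115349208.
Sdhb: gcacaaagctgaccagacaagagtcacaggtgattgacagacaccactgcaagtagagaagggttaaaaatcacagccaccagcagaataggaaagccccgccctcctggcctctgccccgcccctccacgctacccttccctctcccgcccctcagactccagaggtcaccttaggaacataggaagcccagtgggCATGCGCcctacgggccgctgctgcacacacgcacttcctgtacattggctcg
Ndufa8: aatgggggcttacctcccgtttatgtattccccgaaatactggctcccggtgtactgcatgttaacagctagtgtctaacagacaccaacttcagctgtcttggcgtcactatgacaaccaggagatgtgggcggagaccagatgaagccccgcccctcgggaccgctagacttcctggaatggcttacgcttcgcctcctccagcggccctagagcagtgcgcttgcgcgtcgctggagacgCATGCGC
Atp5h: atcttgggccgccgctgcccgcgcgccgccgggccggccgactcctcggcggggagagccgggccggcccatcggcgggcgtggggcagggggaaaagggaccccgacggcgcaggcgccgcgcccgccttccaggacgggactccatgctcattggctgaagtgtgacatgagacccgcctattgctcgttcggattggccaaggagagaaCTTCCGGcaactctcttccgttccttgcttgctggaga
Cox6a1: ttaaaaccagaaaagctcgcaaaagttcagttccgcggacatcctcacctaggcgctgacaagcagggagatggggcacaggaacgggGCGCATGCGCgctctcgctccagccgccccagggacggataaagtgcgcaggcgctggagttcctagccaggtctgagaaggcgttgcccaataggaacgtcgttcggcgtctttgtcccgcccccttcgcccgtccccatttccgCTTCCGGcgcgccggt
Sdhb and Ndufa8 hold the NRF1 core, Atp5h holds the ETS core, and Cox6a1 holds both motifs. In the Cox6a1 run 2 NRF1 matches on opposite strands overlap.

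Either motif, on either strand, was found in 19 of the 66 matched promoters (28.8%), against 11% of the 27025 promoters of the same length in the table. The NRF1 core was in 10 (15.2%, against 3.68%) and the ETS core in 12 (18.2%, against 7.83%). Among members called lower in Hu muscle, as described further on, 13 of 43 with a sequence held either motif, and among muscle members without a call 6 of 21 did. These matches describe the letters in this window and not sites of binding. The other members, among them Cox4i1, Cox6a2, Ndufs1, Sdhc and Uqcrc2, had no entry.

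Some values touch many of the results and are given first. Total counts per library ran from 43.1 to 92.1 M in muscle, 22.95 to 122 M in liver, 23.7 to 47.1 M in ARC and 25.5 to 34.9 M in SCN. In Hu livers, counts on mouse rows ran from 7.70 to 87.9 M. Skeletal muscle markers (Ckm, Acta1, Myh4 and Pygm) summed to at least 62344 CPM in every muscle library and neuron markers (Rbfox3, Snap25, Syt1 and Tubb3) to at least 2361 CPM in every ARC and SCN library. Muscle libraries also held fat. The white fat markers Adipoq, Plin1, Cfd, Lep and Cidec summed to between 7.82 and 791 CPM in Mu, with a median of 62.8, and to between 98.4 and 1937 CPM in Hu, with a median of 486. The brown fat markers Ucp1 and Cidea summed to 0.86 to 348 CPM in Mu and to 1.03 to 705 CPM in Hu, with medians of 4.59 and 33.7.

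Oxidative phosphorylation genes were lower in the muscle of Hu mice. Of 81 members, 57 fell (70.4%) and none rose, by edgeR's quasi-likelihood test with Benjamini-Hochberg adjustment over 14197 genes, in which 13.3% of all genes were lower and 13.5% higher. The difference was small: the members called lower were 11.8% to 37.3% below Mu, and the median of all 81 log2 differences (Hu minus Mu) was -0.27, beside 0.03 over all genes tested. In 75 of the 81 members the Hu median lay below the Mu median, and in 39 every Hu library lay below the Mu median. The ranges of the arms overlapped in all 81. These counts of medians and ranges were not made over all genes. In a mixed tissue, fewer cells of a type and less RNA per cell cannot be told apart.

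**Figure D1:**
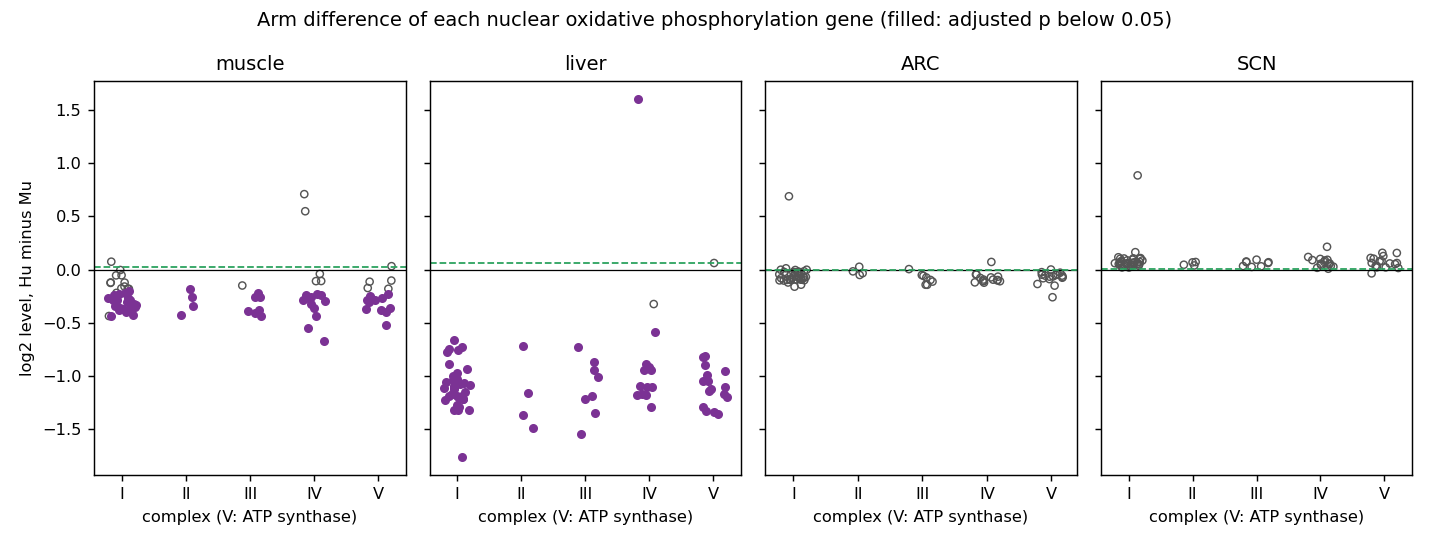
Difference in time-averaged log2 level, Hu minus Mu, for each member (points), by complex and tissue; filled points passed an adjusted p of 0.05 and the dashed line is the median over all genes tested. In muscle 57 filled points lie below 0 and in liver 75, whereas ARC and SCN have none filled.

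Summed over all members, muscle levels were 21219, 29543 and 32174 CPM (lowest, median and highest) in Mu and 16694, 25023 and 28599 CPM in Hu. The lowest Mu library, at ZT 2 (replicate 2), was the lowest of its arm for 74 of the 81 members. In Hu, replicate 1 at ZT 6 was lowest for 60 members and replicate 2 at ZT 14 for 19. White fat markers stood at 791, 971 and 1937 CPM in these 3 libraries. Other fat-rich libraries lay on both sides of the Hu median. Hu replicate 2 at ZT 6, with 798 CPM of the markers, had the highest member sum of Hu. Hu replicate 3 at ZT 2, with 1092 CPM, had a member sum of 25577 CPM, above the Hu median. Hu replicate 1 at ZT 14, with 836 CPM, had 21360 CPM, below that median. Hu replicate 1 at ZT 18, with 1341 CPM, was also below it, at 23172.5 CPM.

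In complex I, 22 of 35 members fell, with a median log2 difference of -0.27. Ndufs1, which carries iron-sulfur clusters in the arm that oxidizes NADH (chr1:63143596-63176833), stood at 382, 560 and 602 CPM (lowest, median, highest) in Mu and at 277, 422 and 505 CPM in Hu. Most Hu libraries lay below most Mu libraries, with overlap at the ends. The log2 difference was -0.43 (SE 0.0827, adjusted p = 0.000739, edgeR's quasi-likelihood test). Ndufs8, another iron-sulfur subunit (chr19:3908863-3912774), had 96.2, 134 and 152 CPM in Mu and 62.3, 103 and 131 CPM in Hu, a log2 difference of -0.44 (SE 0.0853, adjusted p = 0.000789). Ndufa8, an accessory subunit whose promoter is shown above, fell by 0.38 on the log2 scale. At the other end of complex I stood Ndufa2 (-0.00), Ndufa3 (-0.05), Ndufb4 (-0.06) and Ndufa7 (0.07), none of which passed the test.

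All 4 subunits of complex II, which is also the succinate dehydrogenase of the citric acid cycle, fell in Hu muscle. Sdhb, the iron-sulfur subunit, had 295, 443 and 501 CPM in Mu and 205, 338 and 435 CPM in Hu, a log2 difference of -0.43 (SE 0.0905, adjusted p = 0.00158, edgeR). The membrane anchors Sdhc and Sdhd had log2 differences of -0.34 and -0.26. Sdha, the flavoprotein, had the smallest, -0.18 (adjusted p = 0.0342), and missed the threshold in 7 of 27 fits that each left out 1 library, with time as a factor and with the slow fibre score.

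In complex III, 7 of 8 members fell, and only Uqcr10 did not pass (log2 difference -0.15, adjusted p = 0.128, edgeR). The core subunit Uqcrc1 (chr9:108936633-108949623) had 683, 989 and 1145 CPM in Mu and 486, 767 and 918 CPM in Hu, a log2 difference of -0.41 (SE 0.0789, adjusted p = 0.000786). Its partner Uqcrc2 (chr7:120635176-120659524) had 444, 624 and 695 CPM in Mu and 346, 509 and 561 CPM in Hu, a log2 difference of -0.38 (SE 0.0728, adjusted p = 0.00076). In both genes the Hu median lay below all Mu libraries but 1, and the arms overlapped. Of the ATP synthase genes, 12 of 17 fell. Atp5h, a stalk subunit (chr11:115415689-115419962), had 184, 283 and 324 CPM in Mu and 150, 212 and 267 CPM in Hu, a log2 difference of -0.40 (SE 0.0782, adjusted p = 0.000866). Atp5g1, Atp5g2 and Atp5g3 encode the same mature c subunit of the proton-driven ring and are close copies, so that reads may be split between them. Atp5g3 had the largest difference of this complex (-0.52) and Atp5g1 also fell (-0.38), whereas Atp5g2 was at 0.03 (adjusted p = 0.721).

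Complex IV was the complex whose members differed most from each other in muscle. Of its 17 members, 12 fell, and log2 differences ran from -0.67 to 0.71. The lowest was Cox4i2, a scarce alternative form of subunit 4, at 1.26, 2.00 and 2.56 CPM in Mu and 0.757, 1.24 and 1.97 CPM in Hu. It was also the member nearest above the level limit in muscle, where Cox6b2 lay just below it at mean levels of 0.504 CPM in Mu and 1.19 CPM in Hu. The main form Cox4i1 fell by 0.29 on the log2 scale, Cox6b1 by 0.27, Cox7b by 0.23 and Ndufa4 by 0.24. The Cox7b call was lost in 10 of 27 fits that each left out 1 library, and also with time as a factor or with the slow fibre score. Ndufa4l2, a relative of Ndufa4 that low oxygen is known to induce, fell by 0.44 (adjusted p = 0.00417, edgeR).

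The contractile isoforms of complex IV did not move together. Cox7a1 (chr7:30184144-30186078) had 153, 245 and 295 CPM in Mu and 71.1, 178 and 235 CPM in Hu, a log2 difference of -0.55 (SE 0.13, adjusted p = 0.00352, edgeR). Cox6a2 (chr7:128205435-128206387) had 500, 749 and 809 CPM in Mu and 503, 693 and 890 CPM in Hu. Its difference of -0.04 did not pass (SE 0.0834, adjusted p = 0.744). Cox8b (chr7:140898945-140900446) did not pass either (-0.11, adjusted p = 0.399), nor did Cox7a2, the widely expressed partner of Cox7a1 (-0.11, adjusted p = 0.29). Whether these genes differ from each other in their response was not tested.

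The widely expressed isoforms Cox6a1 (chr5:115345642-115348981) and Cox8a (chr19:7215153-7217616) spread widely between libraries and were high in those rich in brown fat markers. Cox6a1 stood at 17.1, 21.4 and 114 CPM in Mu and at 13.4, 28.6 and 148 CPM in Hu, a log2 difference of 0.71 that did not pass (SE 0.361, adjusted p = 0.147, edgeR). Cox8a stood at 23.4, 28.4 and 105 CPM in Mu and at 22.1, 39.6 and 128 CPM in Hu, a difference of 0.55 (SE 0.287, adjusted p = 0.158). In the 7 libraries with more than 50 CPM of Ucp1 and Cidea, 6 of them Hu, Cox6a1 ran from 44.1 to 148 CPM and Cox8a from 50.9 to 128 CPM. In the other 20 libraries Cox6a1 ran from 13.4 to 36.4 CPM and Cox8a from 22.1 to 49.8 CPM, with no overlap in either gene. Without those 7 libraries, a limit chosen after seeing the data, the log2 differences were 0.10 for Cox6a1 (adjusted p = 0.674) and 0.09 for Cox8a (adjusted p = 0.667). The Mu library at ZT 2 (replicate 2), with 348 CPM of the 2 markers, decided the call: without it Cox6a1 was at 1.04 (adjusted p = 0.0231) and Cox8a at 0.78 (adjusted p = 0.0328). With the white fat score as a covariate both differences turned negative (-0.62 and -0.47), as they did without the libraries above 300 CPM of white fat markers (-0.20 and -0.13), and neither passed.

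**Figure D2:**
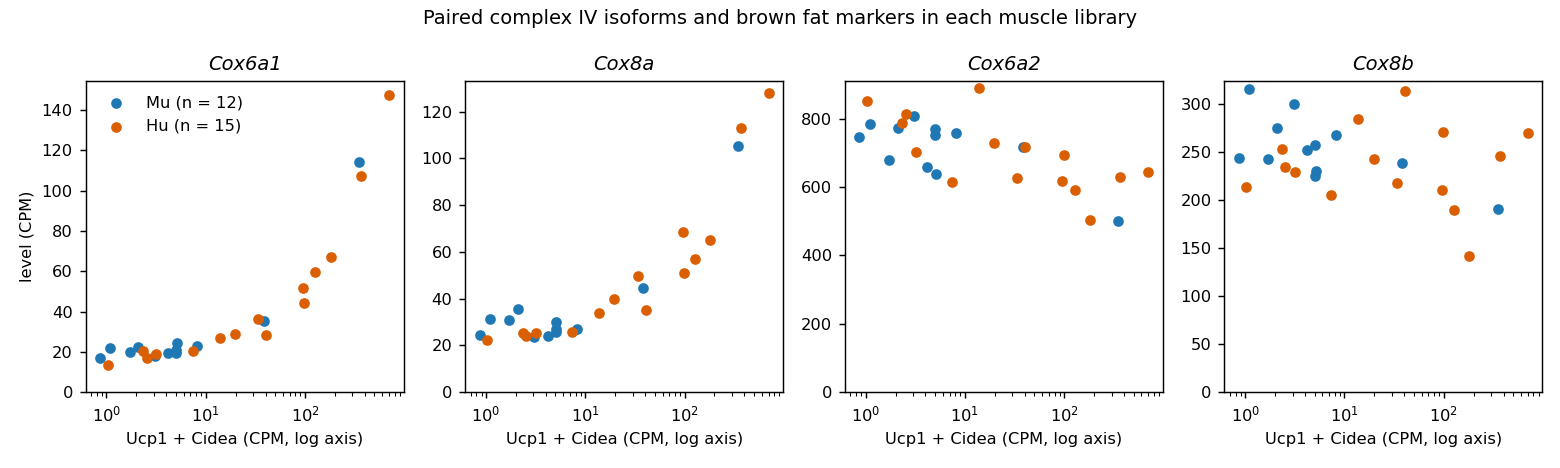
Level (CPM) of the complex IV isoforms Cox6a1, Cox8a, Cox6a2 and Cox8b in each muscle library (points; Mu n = 12, Hu n = 15) against the summed level of Ucp1 and Cidea (CPM, log axis). Cox6a1 is at 44.1 CPM or more and Cox8a at 50.9 CPM or more in all 7 libraries with more than 50 CPM of the markers, above all other libraries.

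Muscle was set apart from the other tissues by its complex IV isoforms. Per kb of exon, the contractile isoforms Cox6a2 and Cox8b stood at 1035 and 674 CPM in muscle and at 0.23 and 0.07 in liver. Cox6a1 and Cox8a stood at 55.0 and 71.3 CPM per kb in muscle and at 294 and 306 in liver. ARC was like liver in this respect, with 198 CPM per kb of Cox6a1 and 2.90 of Cox6a2. Liver was scaled apart from the other tissues, so its levels are comparable with theirs only as shares of each library. Mean levels of Cox8b, Cox8c, Cox4i2 and Cox7b2 were below 1 CPM in both arms in liver, ARC and SCN. Close to the limit, Cox7a1 was at mean levels of 1.04 CPM in Mu and 0.783 CPM in Hu in ARC (not a member there) and at 1.08 and 1.17 CPM in SCN (a member). Cox6a2, a member in ARC, was just below the limit in SCN, where its libraries ran from 0.364 to 1.51 CPM. Cox7b2 had no counts in muscle, and Cox8c was at or below 0.0313 CPM in every muscle library.

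Other mitochondrial gene groups fell in Hu muscle beside the members. Of the 13 subunits encoded by mitochondrial DNA, 11 fell, with a median log2 difference of -0.42 (mt-Co1 -0.51, mt-Cytb -0.49, mt-Nd4 -0.50), and mt-Nd3 and mt-Nd6 did not pass. Nuclear copies of mitochondrial DNA make these counts uncertain. Cyc1, Cycs and Ndufab1, which are electron carriers or subunits outside the name rule, fell, and Atpif1, an inhibitor of ATP synthase, did not (0.18, adjusted p = 0.523, edgeR). In the citric acid cycle list, 11 of 13 genes fell (median -0.28), citrate synthase (Cs) among them at -0.31. Among the genes that build the complexes, 18 of 48 assembly factors fell (median -0.13), and of 78 mitochondrial ribosomal proteins 29 fell and 1 rose (median -0.11), beside 13.3% of all genes lower. Differences between these lists were not tested.

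Among 13 regulators of mitochondrial genes, 6 fell and none rose, beside 13.3% of all genes lower and 13.5% higher. Esrrg, a nuclear receptor of oxidative fibres, ran from 17.5 to 74.4 CPM in Mu and from 4.74 to 22.1 CPM in Hu, a log2 difference of -1.52 (SE 0.233, adjusted p = 0.000125, edgeR). Ppargc1a, the PGC-1alpha coactivator, was at -0.76 and Esrra at -0.55. Gabpa (-0.19), Tefm (-0.20) and Tfam (-0.15) also fell, and Nrf1 was at 0.23 (adjusted p = 0.0571).

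Some fibre, fat and other cell type markers differed between the arms as well, beside 13.3% of all genes lower and 13.5% higher. The counts of the short slow and fast fibre lists are too near these shares to be a result about those lists. Of 10 fast fibre genes, Myh2, the myosin of fast oxidative fibres, fell by 1.58 on the log2 scale (2020 to 13663 CPM in Mu, 318 to 3942 CPM in Hu, adjusted p = 0.00134, edgeR). Myh4, the myosin of fast glycolytic fibres, rose by 0.47 and Actn3 by 0.65. Of 8 slow fibre genes Myl2 (-1.68) and Tnnt1 (-1.56) fell, and the list summed to 157 to 2598 CPM in Mu and 98.7 to 946 CPM in Hu. Of the white fat markers 4 of 5 rose (Adipoq 2.28, Cfd 3.04, Cidec 2.53, Plin1 2.12) and of the brown fat markers both did (Ucp1 4.22, Cidea 2.40). Of the skeletal muscle markers Ckm (0.27) and Myh4 rose, whereas Acta1 and Pygm did not pass. Of the hepatocyte markers Pck1 (3.62), which fat is also known to express, and Cyp2e1 (1.54) rose, Alb did not pass (-1.36, adjusted p = 0.364, edgeR) and 5 were too low to test. That list summed to 2.18 to 356 CPM in Mu and 16.6 to 962 CPM in Hu. The macrophage genes of the Kupffer cell list, Adgre1 (0.71), Vsig4 (1.21) and Cd5l (2.11), rose, with a list sum of 2.40 to 11.1 CPM in Mu and 5.20 to 29.9 CPM in Hu, and Clec4f was at or below 0.359 CPM.

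When a fibre or fat marker entered the fit as a covariate, it depended on the marker whether members still passed. With the slow fibre score (mean log2 CPM of the list) 45 members were lower. Of all genes 19.9% then passed, beside 26.9% in the main fit. The other covariates and limits in this paragraph were chosen after seeing the data. With the level of Myh2 as a covariate no member passed, the median difference was -0.16 beside 0.00 over all genes, and 1.7% of all genes passed. With the white fat score no member passed, the median was -0.12 and 5.68% of all genes passed. Adjusted p of the 5 members named above with the smallest p, Ndufs1, Ndufs8, Uqcrc1, Uqcrc2 and Atp5h, was then between 0.127 and 0.215 with Myh2 and between 0.13 and 0.158 with the white fat score. Leaving out fat-rich libraries hardly changed the count. Without the 7 libraries above 50 CPM of Ucp1 and Cidea, 57 members were lower, 56 of them called before. In that fit 28.9% of all genes passed. Without the 11 libraries above 300 CPM of white fat markers (9 Hu and 2 Mu) 56 were lower, all called before, with a median of -0.29. Of all genes 18.1% passed there. In the libraries kept there, white fat markers still summed to 98.8 to 282 CPM in Hu and 7.82 to 132 CPM in Mu. Beyond these fits, the part of fibre type and of fat in the result was not tested.

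No member passed the test for a daily rhythm in muscle. A cosine of 24 h was fitted to each arm, and 0 of 81 members passed in Mu, beside 5.31% of all genes, and 0 of 81 in Hu, beside 7.78%. At an unadjusted p under 0.05, by edgeR's quasi-likelihood test, 0 members passed in Mu and 3 in Hu, and DESeq2 called 0 in each arm. The arms differed in rhythm for 0 of 81 members, beside 0.0704% of all genes, and 2 members had an unadjusted p under 0.05 (DESeq2 called 0). So few of all genes passed that this count of 0 is no result about the members. The median fitted amplitude of the members (how far the fitted peak lies above the mean, in log2) was 0.0979 in Mu, below the 0.172 of all genes, and 0.126 in Hu, below 0.166. A fitted amplitude is never below 0 and grows with noise. Genes simulated without a rhythm had a median of 0.129 in Mu muscle. These medians therefore do not measure rhythm alone. Leaving out Hu replicate 1 at ZT 6 raised the count in Hu to 3, and leaving out Hu replicate 1 at ZT 14 raised it to 1. In simulated counts for the muscle libraries, the test called 18% of 100 genes with a rhythm of amplitude 0.3 in Mu and 27% in Hu. Those genes were drawn from all genes tested and not from the members. Weak rhythms of members may thus have gone uncalled.

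The members nearest to a rhythm in muscle were scarce or moved little. In Hu, Ndufa4l2 had an amplitude of 0.32 with a fitted peak at ZT 1.4 (adjusted p = 0.0894, edgeR) and Cox4i2 one of 0.37 (adjusted p = 0.129). Ndufs4, a complex I accessory subunit, had the smallest p for a different rhythm (adjusted p = 0.305), with amplitudes of 0.11 in Mu and 0.19 in Hu. In Mu the smallest p was that of Ndufb2, a complex I accessory subunit (adjusted p = 0.289). Fitted peaks of the members were bunched, at ZT 12 to 18 for 64 of 81 in Mu and at ZT 0 to 6 for 62 of 81 in Hu. All members come from the same libraries. The Mu library lowest for 74 members is at ZT 2, and the Hu libraries lowest for 60 and 19 members are at ZT 6 and 14, and their part in the bunching was not tested.

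**Figure D3:**
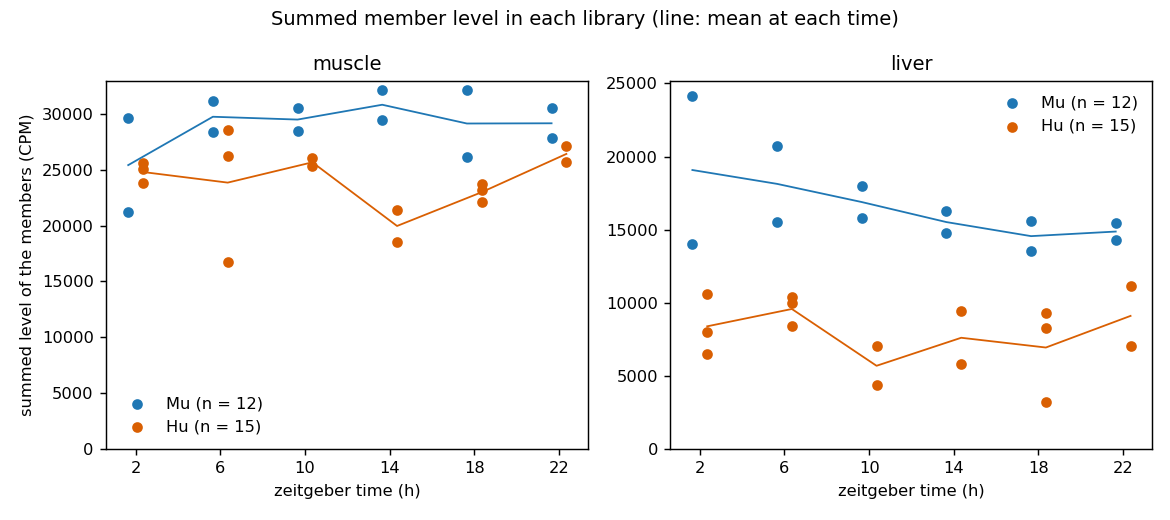
Summed level of the members (CPM) in each muscle and liver library (points) by zeitgeber time (h); lines join the mean at each time in Mu and Hu. In muscle the arms overlap at ZT 2, where a Mu library is low, and at ZT 6, where the highest Hu library lies above a Mu library. In liver every Hu library lies below every Mu library.

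In liver, the mouse copies of the members were lower in Hu by a wide margin. Of 78 members 75 fell (96.2%) and 1 rose, beside 37% of all genes lower and 42.5% higher among 14977 mouse genes, by edgeR's quasi-likelihood test. Members called lower were 33.5% to 70.6% below Mu, and the median log2 difference was -1.11, beside 0.07 over all genes. In 59 of the 78 members the Hu and Mu libraries did not overlap at all. That count was not made over all genes, of which 79.5% were called in either direction, so it is no result about the members. Summed member levels were 13518, 15557 and 24117 CPM (lowest, median, highest) in Mu and 3180, 8285 and 11125 CPM in Hu.

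All 35 members of complex I, all 4 of complex II, all 8 of complex III, 12 of 14 of complex IV and 16 of 17 of ATP synthase fell in liver. Ndufb10, a complex I accessory subunit (chr17:24722060-24724478), had 96.6, 117 and 216 CPM in Mu and 21.99, 34.4 and 56.9 CPM in Hu. Every Hu library lay below every Mu library. Its log2 difference was -1.76 (SE 0.146, adjusted p = 2.15e-10, edgeR). Ndufb2 had 46.1, 55.4 and 103 CPM in Mu and 15.8, 24.2 and 34.9 CPM in Hu (-1.32), and Ndufa8 was at -1.13. Sdhb, with 253, 292 and 401 CPM in Mu and 48.9, 111 and 160 CPM in Hu, had a difference of -1.49. Sdha had 599, 739 and 788 CPM in Mu and 137, 277 and 420 CPM in Hu (-1.37), so that the arms were apart in both succinate dehydrogenase genes.

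The 3 exceptions in liver were scarce genes. Cox6b2, known as the testis form of Cox6b1, stood at 0.152, 0.446 and 1.46 CPM in Mu and 0.618, 1.29 and 3.75 CPM in Hu, a log2 difference of 1.61 (adjusted p = 4.96e-05, edgeR). It passed the level limit, which is set before scaling, only through the Hu arm, at scaled means of 0.531 CPM in Mu and 1.57 CPM in Hu. Just below the limit lay Cox7a1, at 0.89 and 0.686 CPM. Atp5s, coupling factor B of ATP synthase (chr12:69724950-69744660), had 3.67, 5.53 and 8.16 CPM in Mu and 4.33, 6.20 and 7.64 CPM in Hu. Its difference of 0.06 did not pass (adjusted p = 0.551). Ndufa4l2 did not pass either (-0.33, adjusted p = 0.178).

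Cell type markers differed between the mouse rows of Hu and Mu livers. Human rows took 15.9% to 93.1% of the counts in Hu libraries, with a median of 58.7%, and at most 0.0204% in Mu. The hepatocyte markers Alb, Apoa1, Apob, Ttr, Serpina1c, Cps1, Pck1 and Cyp2e1 summed to 102833 to 135630 CPM of mouse rows in Mu and to 8132 to 90474 CPM in Hu, and 6 of 8 were lower in Hu. All 4 stellate cell markers, all 4 endothelial, all 4 bile duct and 2 of 4 Kupffer cell markers were higher in Hu. Among all mouse genes 42.5% were higher and 37% lower, so the Kupffer cell count is no result about that list. Hu replicate 3 at ZT 18, with 93.1% human counts and the lowest hepatocyte sum, was the lowest Hu library for 75 of the 78 members. Without it, 77 members passed.

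**Figure D4:**
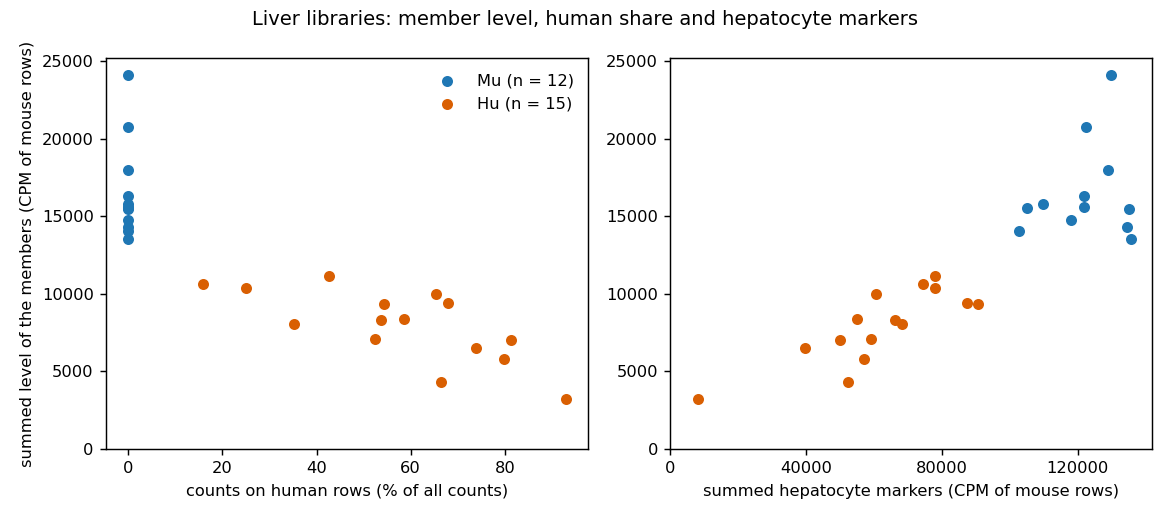
Summed level of the members (CPM of mouse rows) in each liver library (points) against the share of counts on human rows (%, left) and the summed hepatocyte markers (CPM of mouse rows, right). Hu libraries have both lower member sums (3180 to 11125 CPM) and lower hepatocyte marker sums (8132 to 90474 CPM) than all Mu libraries.

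The size of the liver difference depended on the scale. Mouse counts alone, without the scaling factors, gave 64 members lower and 2 higher, with a member median of -0.47 beside 0.74 over all genes, which stood at 0.07 in the scaled fit. Relative to all genes the members were then at -1.21, beside -1.17 with scaling. With library sizes that include the human rows, 36 members were lower and 2 higher (median -0.59, beside 0.50 over all genes). Higher calls made up 53.5% of all calls with scaling, 84.9% without and 83.7% with the human rows. The part of cell mixture in these differences was not tested.

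Related gene groups fell in liver too: all 13 subunits encoded by mitochondrial DNA (median -1.12), 75 of 78 mitochondrial ribosomal proteins (-0.81), 44 of 48 assembly factors (-0.75) and 11 of 13 citric acid cycle genes (-0.71). Of the 13 regulators 6 fell, beside 37% of all genes, so that the count is no result about them. Esrrg (-3.29) and Esrra (-0.82) were among the 6, and Pprc1 rose (0.53), while Ppargc1a did not pass (-0.29, adjusted p = 0.241, edgeR). Atpif1 rose by 0.96 on the log2 scale, against the direction of the subunits.

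In Mu liver a daily rhythm was called for a smaller share of the members than of all genes. In Mu, 1 of 78 members passed, beside 17.3% of all genes, and 7 had an unadjusted p under 0.05. That member was Atp5s, with an amplitude of 0.44 and a fitted peak at ZT 7.2 (adjusted p = 0.012, edgeR). Its amplitude in Hu was 0.0699, and the difference in rhythm between arms did not pass (adjusted p = 0.194). Ndufa2 (adjusted p = 0.0833), Ndufb7 (0.0854), Atp5e (0.0904) and Ndufa3 (0.11) came next, each with a fitted peak between ZT 4 and 5 and an amplitude of 0.44 to 0.52. In Hu, 0 of 78 passed, beside 0.167% of all genes, with 1 member at an unadjusted p under 0.05 (Ndufa12, adjusted p = 0.262) and 0 by DESeq2. With library sizes that include the human rows 39 of 78 passed, and 48.6% of all genes. A different rhythm was called for 0 of 78, beside 1.28% of all genes, with 2 members at an unadjusted p under 0.05 and 0 by DESeq2. So few of all genes passed that the counts of 0 in Hu and for a different rhythm are no result about the members.

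Single libraries and settings moved the liver count in Mu between 0 and 4. Without Mu replicate 2 at ZT 2 it was 4, and without Mu replicate 1 at ZT 6, or without Hu replicate 3 at ZT 18, it was 3. Mu replicate 1 at ZT 2 was the highest of its arm for 73 of 78 members. The median amplitude of the members in Mu, 0.273, was close to the 0.271 of all genes, and fitted peaks fell between ZT 0 and 6 for 60 of 78 members in Mu and 75 of 78 in Hu.

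In the 2 brain nuclei no member passed the test for a level difference between arms. In ARC 0 of 79 members passed for level, beside 0.00663% of all genes, and none had an unadjusted p under 0.05 by edgeR's quasi-likelihood test (DESeq2 called 0). The median log2 difference was -0.07, and 73 of 79 were negative. All members share the same libraries, and Mu replicate 1 at ZT 14 was the highest of its arm for 74 of the 79. In SCN 0 of 79 passed, beside 0% of all genes, with 1 at an unadjusted p under 0.05 and 0 by DESeq2. With so few of all genes called in either nucleus, these counts of 0 are no result about the members. The median in SCN was 0.06 and 1 member was negative, the opposite sign to ARC. With the replicate number as a block the medians were -0.03 in ARC and 0.13 in SCN. In ARC the smallest p for level were those of Ndufb2 (-0.10) and Ndufs6 (-0.14), and in SCN those of Ndufs5 (0.89, SE 0.423) and Atp5l (0.16).

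A rhythm common to both arms was called for 0 of 79 members in ARC, beside 4.53% of all genes, and for 0 of 79 in SCN, beside 1.52%. The share in SCN is so low that the count there is no result about the members. At an unadjusted p under 0.05, by edgeR, 0 members passed in ARC and 2 in SCN, and DESeq2 called 0 in either nucleus. The smallest p in SCN was that of Ndufb2, with an amplitude of 0.19 and a fitted peak at ZT 20.9 (adjusted p = 0.146), followed by Atp5g2 (adjusted p = 0.25). In ARC, Cox6a2 and Cox6a1 had the smallest (adjusted p = 0.351 and 0.363).

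The fall in muscle differed from the brain. In 1 model over muscle, ARC and SCN, the arm difference in muscle minus the mean of those in ARC and SCN was below 0 for 49 of 81 members (60.5%), beside 11.2% of 16040 genes, and above 0 for 0, beside 10.1%. The median over members was -0.29, beside 0.01 over all genes. Set against ARC alone 21 members passed, beside 13% of all genes in either direction. Set against SCN alone 53 did, beside 13.8%. The part of the high Mu library in ARC in these counts was not tested. Ndufs1 (-0.45, adjusted p = 6.0e-05), Uqcrc2 (-0.41, adjusted p = 5.11e-05) and Ndufs8 (-0.48, adjusted p = 0.000106, edgeR) were among them. Libraries of several tissues may come from the same mouse, which the model does not take into account.

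Ndufs5, a complex I accessory subunit (chr4:123712710-123718202), had the widest range between libraries, as highest over lowest level, of the 79 members in ARC and of the 79 in SCN. Its levels in the 44 ARC and SCN libraries fell into 2 ranges, 4.23 to 9.75 CPM and 23.7 to 53.4 CPM, with none between 12 and 20 CPM, and 18 libraries were in the upper range. Of 21 ARC and SCN libraries that share arm, time and replicate number, 13 were low in both nuclei, 8 were high in both and 0 differed. In muscle it ran from 20.4 to 95.4 CPM in Mu and from 17.6 to 91.1 CPM in Hu (log2 difference -0.44, adjusted p = 0.275, edgeR), the widest spread of any complex I member there relative to its mean. The limits of 12 and 20 CPM were chosen after seeing the values.

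**Figure D5:**
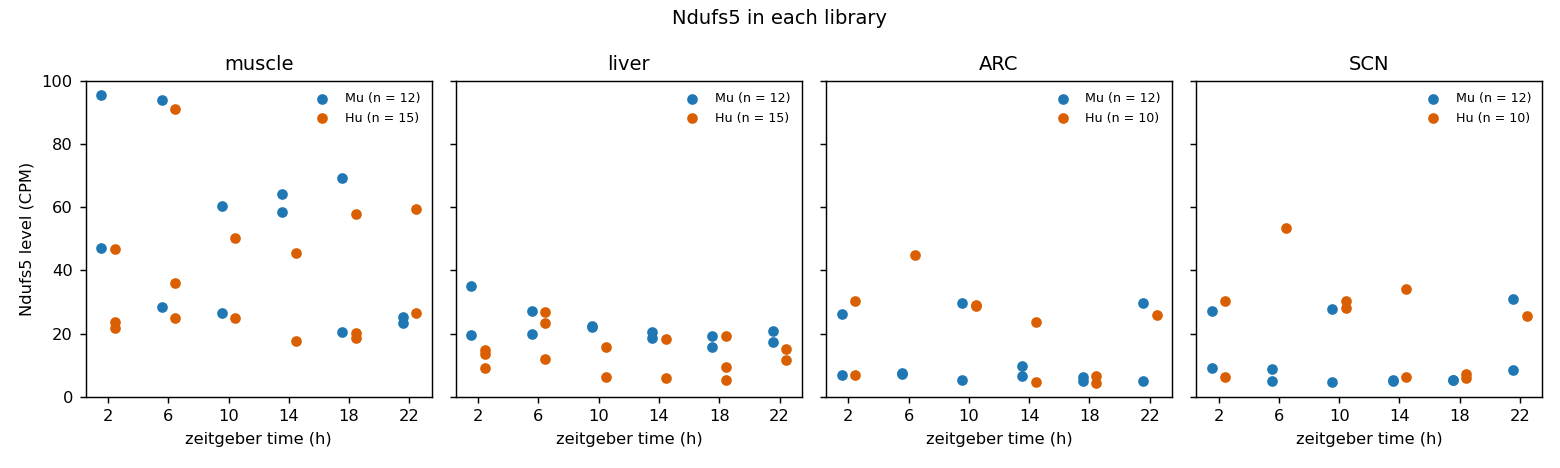
Level of Ndufs5 (CPM) in each library (points) by zeitgeber time (h) in the 4 tissues, Mu and Hu. In ARC and SCN the points lie either at 9.75 CPM and lower or at 23.7 CPM and higher, in both arms, and libraries of the same label lie on the same side in both nuclei.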

How the data were processed

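RNA was sequenced from muscle, liver, ARC and SCN with a directional kit, per the labels' protocols. The authors deposited raw counts per gene, whole numbers in 2 tables (liver with mouse and human rows, and the other tissues). The submitters' processing notes name STAR and the builds GRCm38, mm10, GRCh38, hg38 and hg19, without roles; the counting program is not given in the sources used here. Gene positions and exon lengths are those of GENCODE M21 (GRCm38). All 98 columns were used, and 0 columns were left without a sample; 2 Hu columns at ZT 22 in ARC and SCN matched their group but no single label.

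Each tissue was fitted alone with edgeR 4.0.16 in R 4.3.3 (filterByExpr by arm, TMM scaling, quasi-likelihood F tests, Benjamini-Hochberg over all genes tested, threshold 0.05). The model held the arm and a cosine and sine of 24 h per arm, or shared by the arms for the common rhythm in ARC and SCN. In liver only mouse rows entered. CPM are TMM-scaled. The scripts were tested on simulated data. Depth was lowest in the mouse rows of Hu livers (from 7.70 M).

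Members and lists were chosen with earlier results of these data known, and so were the white fat, brown fat and other marker lists. Named were, per tissue, the 5 members with the smallest p for each direction and each rhythm test in muscle and liver, the 2 per test in ARC and SCN, the complex IV isoforms with Ndufa4 and Ndufa4l2, and complex II; every other named gene was picked with its values in view. Alternatives were RLE scaling, no filter, time as a factor, DESeq2 1.42.0, a replicate block, each arm alone, library sizes over all rows, covariates and each library left out.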

Additional observations from a re-analysis of the deposited data

Results flagged for a closer look

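The arm differences in muscle and in ARC and SCN were fitted together and compared by a contrast in edgeR's quasi-likelihood test. They differed for 49 of 81 oxidative phosphorylation genes, each with the lower value in muscle. Of the 16040 genes tested, 11.2% were below 0 in this contrast and 10.1% above 0. Set against ARC alone 21 members passed, and against SCN alone 53. The 5 members with the smallest p for a lower level in Hu muscle were among the 49. Muscle minus brain, their log2 differences were -0.45 for Ndufs1, -0.41 for Uqcrc2, -0.42 for Uqcrc1, -0.48 for Ndufs8 and -0.43 for Atp5h. Without Hu replicate 2 at ZT 14 in muscle the count was 43, and without Mu replicate 2 at ZT 2 it was 59. Outliers within a group were not tested, since no arm and time point has more than 3 libraries.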

How the results depend on the processing

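No called difference reversed. The muscle count of 57 lower members was 0 with the white fat score or with the Myh2 level as a covariate. It was 45 to 62 in the other 9 settings (45 with the slow fibre score) and 48 to 64 with each library left out. Of all genes, 5.68% passed with the white fat score, 1.7% with Myh2 and 18.1% to 30.1% in those 9 settings. The liver count of 76 changed members was 38 with library sizes over all rows, 66 to 77 in the other 6 settings and 76 to 77 with each library left out. The count of rhythmic members in Mu liver, 1, was 4 with DESeq2, 3 with the arm fitted alone, 0 with library sizes over all rows and 1 to 4 with each library left out. The count in Hu liver, 0, was 39 with library sizes over all rows, a setting in which 48.6% of all genes passed, and 0 with each library left out. In Hu muscle it was 0 to 3 with each library left out. The contrast of muscle with brain gave 49 members, 21 against ARC alone, 53 against SCN alone, and 43 to 59 with each muscle library left out. Every other rhythm, ARC and SCN count was 0 in every setting run. The causes of these changes were not tested, beyond the fewer libraries in each left-out fit. With the replicate number as a block, over the libraries that share a time and number between arms, 50 members were lower in muscle and 77 changed in liver, and the block called 0 members in ARC and SCN. Deviations of same-numbered libraries from the means of their arm and time were correlated between arms. The mean correlation was 0.0249 over 12 pairs in muscle, 0.115 over 12 in liver, 0.13 over 8 in ARC and 0.12 over 8 in SCN. In these tissues 2, 7, 6 and 4 pairs were over 0.1, and in liver the lowest was 0.0129. Where both arms have 2 libraries at a time, both pairs give the same value by arithmetic (0.35 in ARC at ZT 10). These values cannot decide whether libraries were paired.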
